A study of Mus musculus with 12 samples.

Results

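Smooth muscle contractile genes were followed in the jejunum, the middle part of the small intestine, of male mice. The set holds 31 genes, named by symbol, and a probe belonged to a gene when the RefSeq accession in its annotation mapped to that symbol. All 31 had a probe on the array, 53 probes in all. The array holds 56605 probes, and 27565 genes were tested, all 31 among them. A probe without a symbol counted as a gene of its own, and 15812 of the 27565 had a symbol. Shares of all genes given below include such probes. Wild-type (WT) mice and Akp3-/- mice (IAP knockout, KO), which lack the gene of an intestinal alkaline phosphatase, started treatment at 7 weeks of age. Both genotypes were dosed by mouth daily for 14 days, either with the vehicle, carboxymethylcellulose at 5 g/L, or with IIAEK in it, a peptide of 5 amino acids known for lowering cholesterol, at 600 mg/kg body weight. A source label of the IIAEK samples gives 14 weeks, whereas their titles and the protocol give 14 days, which is used here. The jejunum was taken after an 8 h fast and its total RNA was hybridised in 1 colour, with 3 samples in each of the 4 groups.

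Smooth muscle forms the muscle coats of the gut wall and surrounds its blood vessels, and it moves the gut contents along. It contracts when calcium activates the myosin light chain kinase Mylk, which phosphorylates the regulatory light chain Myl9 and lets the Myh11 myosin pull on actin filaments, while a myosin phosphatase reverses this. Caldesmon, calponin and tropomyosin sit along the actin filaments, desmin and synemin form the intermediate filaments, and adhesion plaques tie the filaments to the membrane and to the matrix outside. Many of these genes are switched on by the serum response factor Srf and its partner myocardin (Myocd), which act through the CArG box, a short A- and T-rich sequence between CC and GG.

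Promoters from RefSeq (assembly GRCm38.p6), from 250 bases before to 50 bases after each start, were matched for 26 of the 31 genes by symbol. Those of Actg2, Myh11, Tagln, Myocd and Itga7 were not matched. A complete CArG box, whose pattern reads the same on both strands, was found in 5 of the 26 genes (19.2%), against 1.81% of 27025 genes in the same table. The other 21 matched genes had none. The 5 are shown because the set was not chosen for this sequence and because their levels did not behave alike. Each is printed 5′ to 3′ on the strand of the gene, with the 10 bases of the CArG box in capitals and 20 bases on each side, and the coordinates are those of the whole printed stretch. The box in the Acta1 stretch (chr8:123894819-123894868, minus strand) begins 73 bases before the start, that of Myl9 (chr2:156775283-156775332, plus strand) 161 bases, that of Vcl (chr14:20929151-20929200, plus strand) 227 bases and that of Filip1l (chr16:57549160-57549209, plus strand) 62 bases. The box in the Ldb3 stretch (chr14:34588687-34588736, minus strand) begins 35 or 109 bases before its starts, of which the table lists more than 1.
Acta1: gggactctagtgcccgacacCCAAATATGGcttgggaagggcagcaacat
Myl9: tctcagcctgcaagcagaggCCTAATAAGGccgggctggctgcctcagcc
Ldb3: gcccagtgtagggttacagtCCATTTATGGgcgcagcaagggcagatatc
Vcl: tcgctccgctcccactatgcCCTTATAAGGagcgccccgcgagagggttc
Filip1l: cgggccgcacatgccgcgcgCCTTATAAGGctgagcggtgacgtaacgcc

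A near box, in which 5 of the 6 middle bases are A or T, was found in 6 of the 26 genes (23.1%), Acta1, Acta2, Hspb6, Jph2, Myl9 and Synm, against 9.69% of all genes of the table. Acta2, the actin that defines smooth muscle, has 2 of them, beginning 84 bases (printed stretch chr19:34255428-34255477, minus strand) and 34 bases (printed stretch chr19:34255378-34255427, minus strand) before its start.
Acta2, upstream box: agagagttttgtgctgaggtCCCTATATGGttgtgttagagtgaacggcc
Acta2, downstream box: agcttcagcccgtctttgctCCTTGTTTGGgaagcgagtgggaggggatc
A match of letters is not a measured site of binding, and binding was not measured here.

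Levels below are log2 signals, with each array's 75th percentile set to 0, and a difference of 1 is a doubling of signal. They compare arrays for 1 gene and do not rank genes against each other. Akp3 itself was well above background on 2 of 3 WT vehicle arrays and on 3 of 3 WT IIAEK arrays, at -6.42 to -1.61 over the 6 WT arrays, and on 0 of 6 KO arrays, at -7.33 to -5.96. The labelled tissue was checked against its markers, and enterocyte genes gave summed linear levels of 1852 to 2615 relative to the 75th percentile over the 12 arrays. Arrays correlated at r = 0.978 to 0.992 within groups and at 0.965 to 0.994 between groups, across the genes tested, each by its brightest probe. The arrays lay on 2 slides. Slide 1 held replicate 1 of both WT groups and replicates 1 and 2 of both KO groups, and slide 2 held the others. WT IIAEK replicate 3 and KO vehicle replicate 3 stood apart in genes of the exocrine pancreas, whose summed level reached 2543 and 216 there. P-values compare a group difference with the spread between samples of a group, which limma pools over the 4 groups and moderates across genes.

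In WT mice, 27 of the 31 smooth muscle genes had a higher mean on IIAEK than on vehicle, against 43% of all genes tested. The median difference of the 31 genes was 0.67, against -0.06 over all genes. No gene of the 31, and none of all genes tested (0%), passed an adjusted p of 0.05 in limma, and the smallest adjusted p of a member was 0.369. At an unadjusted p under 0.05, 16 of the 31 were higher and 0 lower, against 5.86% and 7.18% of all genes. The 3 IIAEK arrays lay above all 3 vehicle arrays in 13 of the 31 genes and below them in 0, against 10.6% and 14.7% of all genes. Acta1, Jph2, Tpm2, Des, Acta2 and Hspb6, which span actins, filament regulators, desmin and a junction protein, had the highest differences, from 1.14 to 1.54. In bulk tissue such as this, more muscle cells and more RNA per muscle cell cannot be told apart. Without WT IIAEK replicate 3 the median was 0.47 and 10 genes were higher at an unadjusted p under 0.05, against 2.02% of all genes in that fit. Without both that array and WT vehicle replicate 2 these were 0.32 and 4, against 1.11%.

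**Figure D1:**
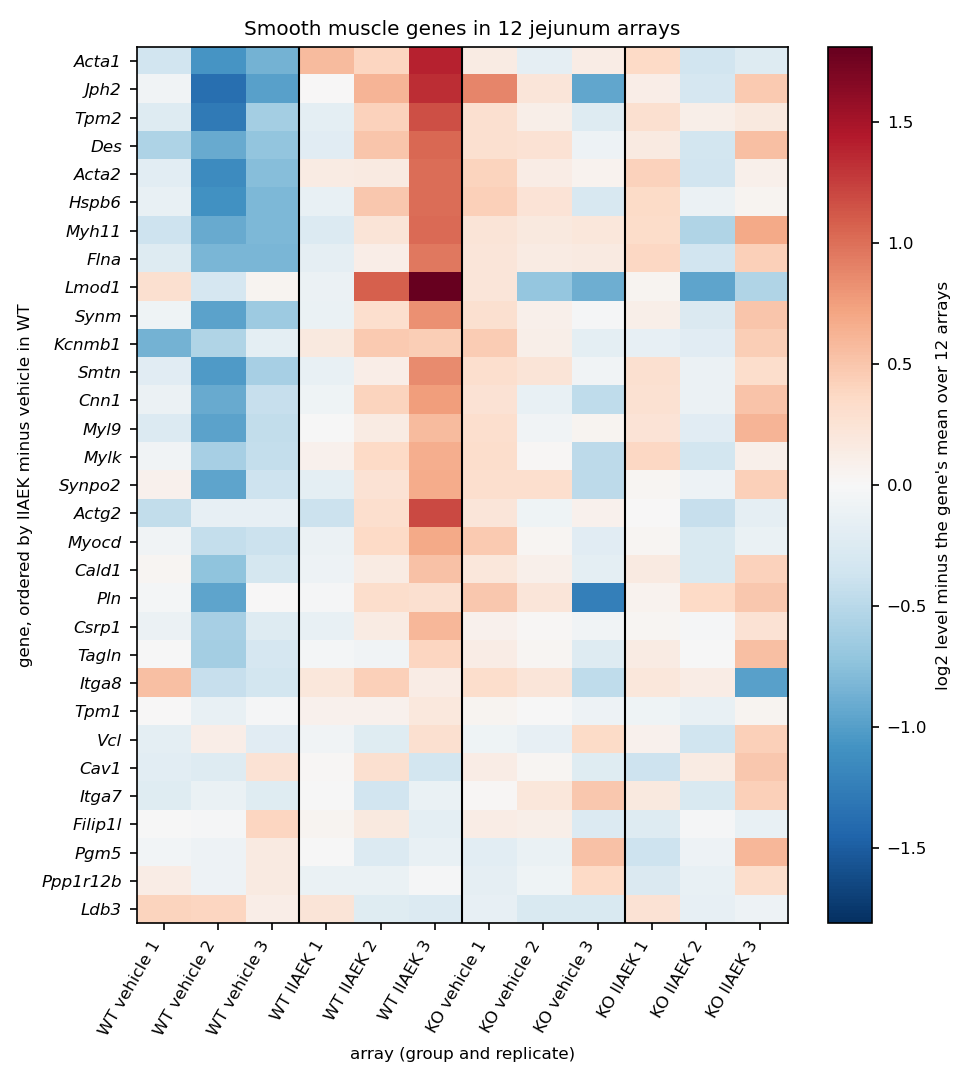
Level of each of the 31 genes (rows, ordered by the difference between IIAEK and vehicle in WT) on each of the 12 arrays (columns, grouped by genotype and treatment), as log2 level minus the mean of the gene over the 12 arrays. WT vehicle replicate 2 was the lowest array for 17 genes and WT IIAEK replicate 3 the highest for 19, while Ldb3 at the foot ran the other way.

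Among the actins, all 4 genes including the actin nucleator had higher means on IIAEK in WT. Acta1, skeletal alpha actin, which smooth muscle also makes, measured -1.01, -1.73 and -1.51 on WT vehicle and -0.08, -0.28 and 0.74 on WT IIAEK. On KO vehicle it measured -0.51, -0.82 and -0.52, and on KO IIAEK -0.30, -1.01 and -0.90. The WT vehicle arrays lay below all arrays of the other groups except KO IIAEK replicate 2, which had the level of WT vehicle replicate 1 to 2 decimals, and every WT IIAEK array lay above every KO array. The difference between IIAEK and vehicle in WT was 1.54 ± 0.29 (SE, 2.91-fold, 95% interval 0.91 to 2.17, adjusted p = 0.369 in limma). In KO mice it was -0.12 ± 0.29.

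Acta2, smooth muscle alpha actin, measured 4.05, 3.09 and 3.46 on WT vehicle and 4.39, 4.40 and 5.25 on WT IIAEK. It measured 4.64, 4.38 and 4.30 on KO vehicle and 4.65, 3.89 and 4.33 on KO IIAEK. The WT vehicle arrays were low, and no array of WT IIAEK or KO vehicle reached down to them. The difference in WT was 1.14 ± 0.30 (2.21-fold) and that between KO and WT on vehicle was 0.90 ± 0.30. The 2 other probes of Acta2 gave 1.0 and 0.46 for IIAEK in WT.

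Actg2, the gamma actin of gut and other visceral muscle, measured 1.10, 1.41 and 1.40 on WT vehicle and 1.16, 1.85 and 2.74 on WT IIAEK. These overlapped, and the difference of 0.61 ± 0.31 included 0 in its interval (-0.07 to 1.29). In KO mice Actg2 measured 1.78, 1.47 and 1.63 on vehicle and 1.55, 1.14 and 1.38 on IIAEK. Lmod1, a leiomodin that starts new actin filaments, was dim and was well above background on 8 of 12 arrays. It measured -5.08, -5.68 and -5.33 on WT vehicle and -5.48, -4.30 and -3.57 on WT IIAEK, a difference of 0.92 ± 0.45. On KO vehicle it measured -5.16, -6.08 and -6.26 and on KO IIAEK -5.33, -6.33 and -5.93, and replicate 1 of each KO group was the only KO array well above background, so no size is given for its difference between genotypes.

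**Figure D2:**
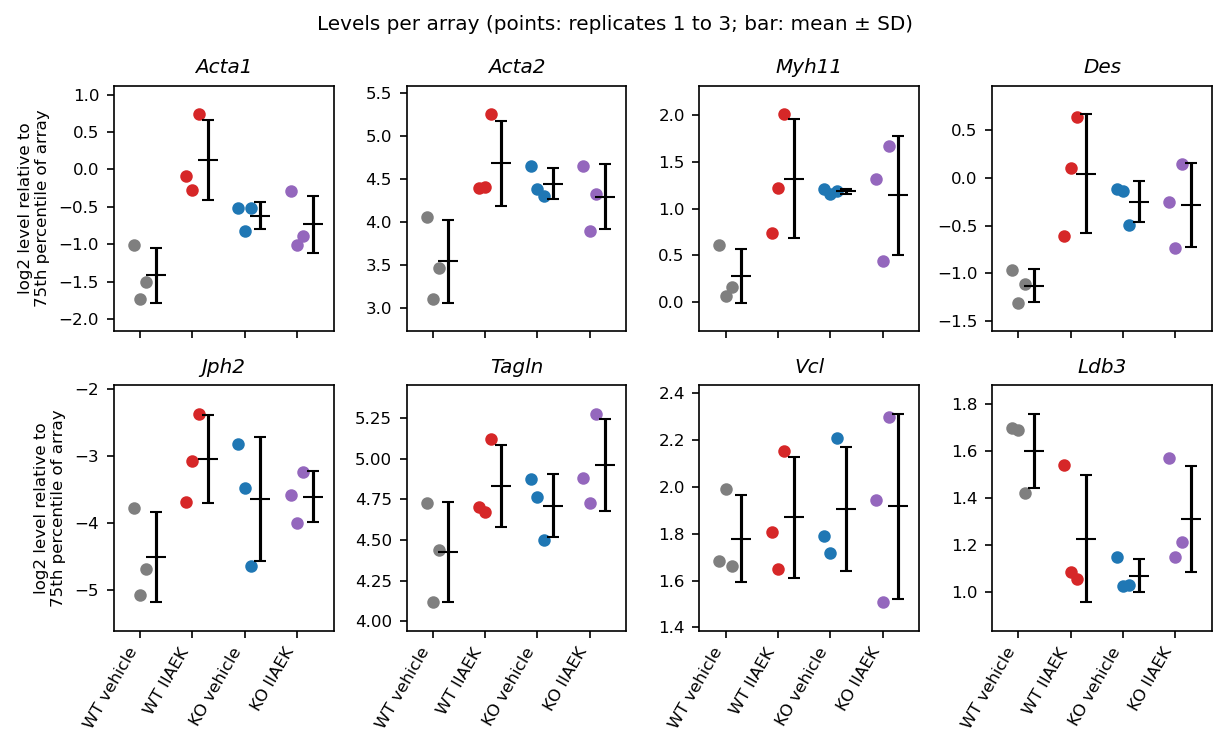
Levels of 8 of the genes on each array (points, replicates 1 to 3 from left to right in each group) with the group mean and SD (bars, n = 3), as log2 signal with the 75th percentile of each array at 0; the vertical scale differs between genes. The group means of Acta1, Acta2, Myh11 and Des were lowest on WT vehicle, Tagln and Vcl overlapped between all groups, and the mean of Ldb3 was highest on WT vehicle.

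Of the 4 myosin genes, 3 had higher means on IIAEK in WT, and the phosphatase subunit did not. Myh11, the smooth muscle myosin heavy chain, measured 0.61, 0.07 and 0.16 on WT vehicle and 0.74, 1.22 and 2.01 on WT IIAEK, which did not overlap. The KO vehicle arrays were close together at 1.21, 1.16 and 1.18, above all WT vehicle arrays, and the KO IIAEK arrays were spread at 1.31, 0.44 and 1.67. The difference was 1.04 ± 0.34 for IIAEK in WT (2.05-fold) and 0.90 ± 0.34 for KO against WT on vehicle. The 2 other probes of Myh11 gave 1.09 and 1.19 for the former. Myl9, the regulatory light chain, measured 5.36, 4.64 and 5.17 on WT vehicle, 5.60, 5.76 and 6.19 on WT IIAEK, 5.92, 5.55 and 5.66 on KO vehicle and 5.87, 5.41 and 6.23 on KO IIAEK. Its WT vehicle arrays also lay below all arrays of the other groups, and its difference in WT was 0.79 ± 0.25. Mylk, the kinase of that light chain, was 0.73 ± 0.25 higher on IIAEK in WT without overlap, and 0.32 ± 0.25 higher in KO than in WT on vehicle with overlap. Ppp1r12b, which encodes a targeting subunit of myosin phosphatase, differed by -0.16 ± 0.18 in WT. Its brightest probe has a noncoding transcript as its target, and its other probe, on a coding transcript, gave 0.11.

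All 6 regulators of the thin filament had higher means on IIAEK in WT, and those of Tpm2, Smtn, Cnn1 and Tpm1 did not overlap. Tpm2, beta tropomyosin, measured 1.38, 0.32 and 0.99 on WT vehicle and 1.43, 2.02 and 2.77 on WT IIAEK, a difference of 1.18 ± 0.33 (2.26-fold). The lowest IIAEK array lay only just above the highest vehicle array. The second probe of Tpm2 gave 0.30, so its probes disagreed in size. Smtn, smoothelin, a protein of contractile smooth muscle, was 0.89 ± 0.27 higher. Cnn1, calponin, which restrains actomyosin, was 0.84 ± 0.28 higher, and Cald1, caldesmon, was 0.53 ± 0.24 higher with overlap. Tagln (SM22), an actin-binding protein, measured 4.73, 4.12 and 4.43 on WT vehicle, 4.70, 4.67 and 5.12 on WT IIAEK, 4.87, 4.76 and 4.50 on KO vehicle and 4.88, 4.72 and 5.28 on KO IIAEK. Those groups overlapped, and the difference of Tagln in WT was 0.40 ± 0.21. Tpm1, alpha tropomyosin, which is also made outside muscle, differed by 0.16 ± 0.12, and its 2 other probes gave -0.08 and -0.07.

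Both intermediate filament genes were among the larger differences. Des, desmin, the intermediate filament of muscle, measured -0.96, -1.31 and -1.12 on WT vehicle and -0.61, 0.10 and 0.64 on WT IIAEK. It measured -0.11, -0.14 and -0.50 on KO vehicle and -0.25, -0.74 and 0.14 on KO IIAEK, so that all 9 other arrays lay above the WT vehicle arrays. The difference of Des was 1.17 ± 0.30 for IIAEK in WT (2.25-fold) and 0.88 ± 0.30 for KO against WT on vehicle. Synm, synemin, which joins desmin filaments to plaques, was 0.90 ± 0.29 higher on IIAEK in WT, but its lowest IIAEK array (0.18) lay below its highest vehicle array (0.23).

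The 9 genes of crosslinkers and adhesion plaques were divided. Flna, filamin A, which crosslinks actin in many cell types, measured 3.07, 2.48 and 2.48 on WT vehicle and 3.15, 3.43 and 4.26 on WT IIAEK, a difference of 0.94 ± 0.29, whereas its second probe gave 0.19. Synpo2, an actin-binding protein of muscle, was 0.67 ± 0.31 higher, and Csrp1, a LIM protein of smooth muscle, was 0.52 ± 0.20 higher, both with overlap. Vcl, vinculin, the linker of plaques to actin, measured 1.68, 1.99 and 1.66 on WT vehicle and 1.81, 1.65 and 2.15 on WT IIAEK. Its groups overlapped throughout, and its difference of 0.09 ± 0.22 had a 95% interval of -0.40 to 0.58. Pgm5, a plaque protein related to phosphoglucomutase, differed by -0.14 ± 0.25 by its brightest probe and by 0.72 by its second, which was well above background on 6 of 12 arrays. The laminin receptor subunit Itga7 differed by 0.03 ± 0.19, the integrin subunit Itga8 by 0.32 ± 0.35 and Filip1l, a relative of a filamin-binding protein, by -0.10 ± 0.17.

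Ldb3, a PDZ and LIM protein best known from the Z-disc of striated muscle, ran against the set. It measured 1.70, 1.69 and 1.42 on WT vehicle and 1.54, 1.09 and 1.05 on WT IIAEK. It measured 1.15, 1.02 and 1.03 on KO vehicle, all below the WT vehicle arrays, and 1.57, 1.15 and 1.21 on KO IIAEK. The difference was -0.37 ± 0.17 for IIAEK in WT and -0.53 ± 0.17 for KO against WT on vehicle, and the second probe gave -0.21 and -0.38. Of the 5 genes with a complete CArG box in the promoter, Acta1 and Myl9 had WT groups that did not overlap and were higher on IIAEK, and Ldb3, Vcl and Filip1l had overlapping groups and intervals that reached both sides of 0.

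Of the 4 genes of membranes and calcium handling, Jph2 and Kcnmb1 were apart between the WT groups. Jph2, a junctophilin that holds the sarcoplasmic reticulum to the plasma membrane, measured -3.77, -5.07 and -4.69 on WT vehicle and -3.69, -3.08 and -2.37 on WT IIAEK, a difference of 1.46 ± 0.48 (2.76-fold). Here WT vehicle replicate 1 nearly reached WT IIAEK replicate 1. Kcnmb1, the beta subunit that tunes the calcium-activated potassium channel of smooth muscle, measured -5.12, -4.80 and -4.43 on WT vehicle and -4.08, -3.78 and -3.81 on WT IIAEK, a difference of 0.89 ± 0.24. Its second probe was below background on all arrays. Pln, phospholamban, the inhibitor of the calcium pump, was well above background on 10 of 12 arrays and differed by 0.52 ± 0.40. Cav1, caveolin, which is also made by endothelium and fat, differed by 0.05 ± 0.24.

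Myocd, the cofactor that drives the contractile programme, measured -3.28, -3.65 and -3.61 on WT vehicle and -3.33, -2.87 and -2.54 on WT IIAEK, a difference of 0.60 ± 0.23 with overlap at replicate 1. In KO mice it measured -2.75, -3.19 and -3.44 on vehicle and -3.19, -3.51 and -3.35 on IIAEK. Hspb6, a small heat shock protein that takes part in relaxation, measured -0.49, -1.47 and -1.18 on WT vehicle and -0.49, 0.13 and 0.65 on WT IIAEK. Replicate 1 of both groups had the same level to 2 decimals, and the difference was 1.14 ± 0.32 (2.20-fold). Its second probe gave 0.99.

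In KO mice the genes were not separated by treatment. Of the 31, 14 had a higher mean on IIAEK, against 51.2% of all genes tested, and the median difference was -0.02, against 0.01 over all genes. None of the 31 was past an unadjusted p of 0.05 in either direction, against 1.89% higher and 2.53% lower of all genes, and none had groups that did not overlap, against 4.05% and 3.5%. The smallest adjusted p of a member in limma was 0.910, and no gene of all those tested passed 0.05 (0%). The number with a higher mean depended on single arrays: it was 26 (median 0.17) without KO IIAEK replicate 2, 7 (-0.10) without KO IIAEK replicate 3 and 8 (-0.07) without KO vehicle replicate 3. The differences ran from -0.27 for Actg2 to 0.49 for Pln. For Acta2 the 95% interval of the difference was -0.80 to 0.50, and changes within that range could not be told from 0 with 3 arrays a group.

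On vehicle, 27 of the 31 genes had a higher mean in KO than in WT mice, against 45.5% of all genes tested. The median difference was 0.37, against -0.03 over all genes. None passed the adjusted threshold (0% of all genes did), and the smallest adjusted p of a member in limma was 0.423. At an unadjusted p under 0.05, 12 were higher and Ldb3 alone lower, against 4.85% and 6.52% of all genes. Groups did not overlap for 12 genes that were higher in KO, against 10.3% of all genes, and for Ldb3, which was lower, against 13.4%. Beside Acta1, Acta2, Actg2, Myh11, Des, Synm, Smtn, Myl9, Tpm2, Flna and Csrp1, the 12 include Itga7, at -0.43, -0.33 and -0.42 in WT and -0.18, 0.00 and 0.29 in KO. The difference of Itga7 was 0.43 ± 0.19, whereas IIAEK in WT left its groups overlapping. Other probes gave less for Flna (-0.037), Tpm2 (0.22) and Acta2 (0.30 and 0.72) in KO against WT on vehicle. Those of Myh11 gave 0.88 and 0.80, that of Smtn 0.83 and that of Synm 0.98. Of the 22 other probes of the 31 genes, 19 had the same sign as the brightest in this comparison. The WT vehicle arrays enter this comparison and that of IIAEK in WT, so the counts of these comparisons are not independent. Without WT vehicle replicate 2 the median was 0.23 and 2 genes were higher at an unadjusted p under 0.05, against 3.28% of all genes in that fit. The count was 6 without WT vehicle replicate 3 (3.06% of all genes) and 6 without KO vehicle replicate 1 (5.15%).

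On IIAEK, 8 of the 31 genes had a higher mean in KO than in WT, against 53.1% of all genes tested, and the median was -0.15, against 0.02. At an unadjusted p under 0.05, 0 were higher and 2 lower, Acta1 and Lmod1, against 4.35% and 3.32% of all genes. Lmod1 entered the test through the WT groups alone, since 1 of 3 arrays in each KO group was well above background. With all 12 arrays required, 1 gene was lower, against 3.35% of all genes in that fit. The groups did not overlap for Acta1 and Tpm1, both lower, against 3.87% of all genes, and for 0 genes that were higher, against 5.55%. Acta1 was 0.86 ± 0.29 lower in KO (95% interval of the difference -1.49 to -0.23), and the smallest adjusted p of a member in limma was 0.647 (0% of all genes passed). Single arrays moved these values. Without WT IIAEK replicate 3 the median was 0.03, with 16 genes above 0. Without WT IIAEK replicate 1 it was -0.35, with 5 genes lower at an unadjusted p under 0.05 (5.05% of all genes in that fit). Without KO IIAEK replicate 2 it was -0.03, with 14 genes above 0. Without KO IIAEK replicate 3 it was -0.27, with 3 above 0. In that last fit 3 genes were lower at an unadjusted p under 0.05, against 3.72% of all genes.

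**Figure D3:**
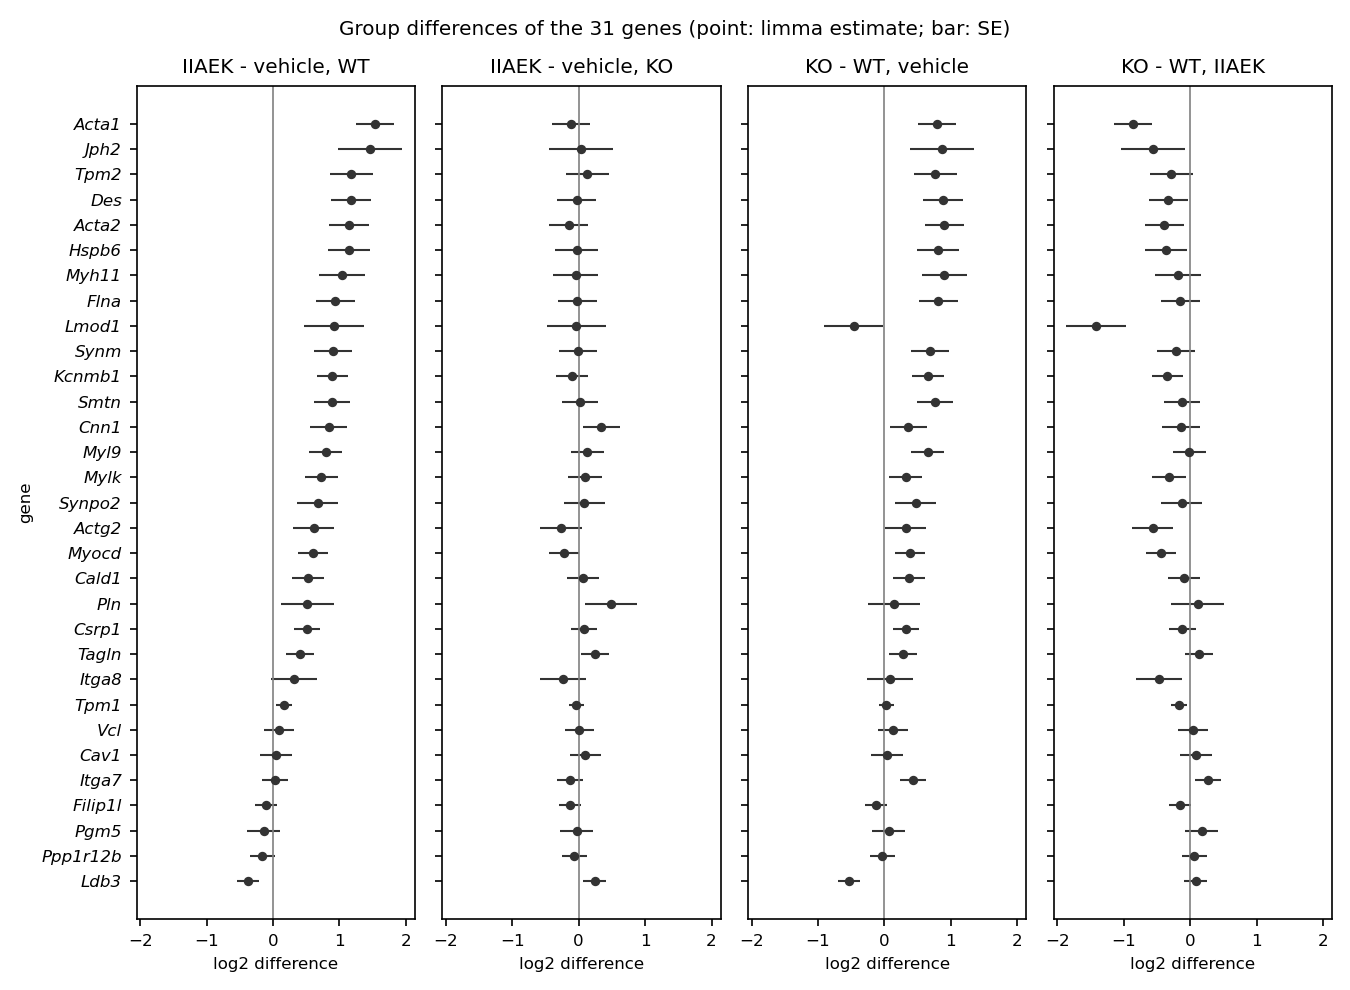
Differences between groups for the 31 genes (rows) in 4 comparisons (panels), as limma estimates in log2 units with the SE as a bar, n = 3 arrays per group. The genes at the top lie to the right of 0 for IIAEK in WT and for KO against WT on vehicle and near 0 for IIAEK in KO; those first-named comparisons share the WT vehicle arrays, and Lmod1 was well above background on 1 of 3 arrays in each KO group.

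The interaction asks whether the response to IIAEK differed between genotypes. It was above 0, a higher response in KO, for 4 of the 31 genes, against 54.6% of all genes tested, and below 0 for the other 27. The median was -0.64, against 0.06. At an unadjusted p under 0.05, 11 genes were lower and Ldb3 alone higher, against 6.11% and 8.97% of all genes, and none passed the adjusted threshold (0% of all genes did). The smallest adjusted p of a member in limma was 0.310, shared by Acta1 (-1.66 ± 0.41), Acta2 (-1.29 ± 0.42), Des (-1.20 ± 0.42) and Kcnmb1 (-1.0 ± 0.33). Jph2, at -1.42 ± 0.68, had an interval that included 0. Ldb3 had 0.62 ± 0.24. The count of 11 depended on single arrays. It was 4 without WT vehicle replicate 2, WT IIAEK replicate 3, KO vehicle replicate 1 or KO IIAEK replicate 2, each left out alone. It was 5 without WT vehicle replicate 3 and 6 without KO vehicle replicate 2. Of all genes, 3.48% to 5.25% were lower in these fits. Without WT vehicle replicate 1 the count was 13 (5.68% of all genes) and without WT IIAEK replicate 1 it was 15 (7.57%). With any other array left out it was 8 to 11, against 4.97% to 10.3%.

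The genes varied together from array to array. As a median over the 31 genes of the level minus the mean of the gene, the WT vehicle arrays lay at -0.10, -0.62 and -0.33 and the WT IIAEK arrays at -0.06, 0.26 and 0.66. The KO vehicle arrays lay at 0.23, 0.09 and -0.17 and the KO IIAEK arrays at 0.15, -0.20 and 0.42. WT vehicle replicate 2 was the lowest array for 17 genes and WT IIAEK replicate 3 the highest for 19, while KO IIAEK replicate 3 was the highest for 6. Over the 12 arrays the median Pearson r between pairs of the genes was 0.549, and 75.5% of the 465 pairs were above 0. For deviations from the group means the median r was 0.480. These are descriptions over 12 arrays that share their scaling. The genes closest to the median of the others were Synm (r = 0.975), Cald1 (0.969) and Cnn1 (0.959). Ldb3 (-0.55), Filip1l (-0.29), Pgm5 (-0.11), Ppp1r12b (-0.06), Cav1 (0.08), Itga8 (0.14), Itga7 (0.16) and Vcl (0.29) did not follow it, and the other 23 were above 0.5.

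The slides gave different sizes. For IIAEK in WT the median of the 31 genes was 0.055 within slide 1, which holds 1 array of each WT group, and 0.93 within slide 2, which holds 2 of each. The number of genes above 0 was 20 on slide 1 and 25 on slide 2. Acta1 was 0.92 and 1.85 higher on the slides in that order, Acta2 0.34 and 1.54, Des 0.35 and 1.58, Myh11 0.13 and 1.49 and Jph2 0.08 and 2.16. With slide as a block the median was 0.67, which the block could not change, because each slide holds equal numbers of both WT groups. For KO against WT on vehicle the medians were 0.28 and 0.33, for IIAEK in KO -0.17 and 0.34, for KO against WT on IIAEK -0.02 and -0.08, and for the interaction -0.22 and -0.46. The part of the slides in these results was not tested.

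Other genes of the muscle pathways, in 2 lists, had smaller medians for IIAEK in WT. The 31 genes and these lists were chosen with earlier results of these data known, so this is a description only. Of 31 regulators and genes of excitation and contraction, 21 had higher means on IIAEK in WT (43% of all genes did), 4 were higher and 3 lower at an unadjusted p under 0.05 (5.86% and 7.18% of all genes), and the median was 0.17. Those with the smallest p that were higher were Cacnb2, a calcium channel subunit (0.96 ± 0.26), Chrm2, a muscarinic receptor (0.88), and Mrvi1, a target of cyclic GMP signalling (0.68). Of 34 other genes of adhesion and cytoskeleton, 25 had higher means, 13 were higher and 1 lower at an unadjusted p under 0.05, against the same shares of all genes, and the median was 0.25. Among them were Dmpk, the myotonic dystrophy kinase (1.0 ± 0.28), Pdlim3 (0.76 ± 0.20), Lims2 (0.75) and Tns1 (0.67), which are proteins of actin and plaques. None of the genes of these lists passed the adjusted threshold. In the regulator list the WT groups did not overlap for 4 higher and 4 lower genes, against 10.6% and 14.7% of all genes. Its summed linear level, which weighs bright genes most, ran from 632 to 716 on WT vehicle and from 563 to 609 on WT IIAEK. That of the adhesion list ran from 183 to 192 and from 182 to 197. For KO against WT on vehicle, 26 of the 34 had higher means (45.5% of all genes did), 6 were higher and 2 lower at an unadjusted p under 0.05 (4.85% and 6.52% of all genes), and the median was 0.24.

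Marker lists of other cells of the gut wall had medians above 0 for IIAEK in WT, apart from enterocytes, but no marker passed the adjusted threshold. Of all genes, 43% had higher means, and 5.86% were higher and 7.18% lower at an unadjusted p under 0.05. The means of 13 of 15 genes of fibroblasts and matrix were higher (median 0.50, 6 at an unadjusted p under 0.05), among them Col1a1, a collagen of the gut wall (1.58), and their summed linear level ran from 68.1 to 113 on WT vehicle and from 101 to 125 on WT IIAEK. Genes of interstitial cells of Cajal, the pacemaker cells of the gut, had higher means in 5 of 8 (median 0.24, 0 at that p, sums 2.15 to 3.22 and 2.77 to 3.60). Those of enteric neurons and glia had higher means in 10 of 13 (0.29, 2 at that p, sums 39.4 to 47.9 and 43.8 to 49.8). Pericyte genes had higher means in 5 of 8 (0.15, 0 at that p, 5.06 to 7.48 and 6.52 to 7.65), endothelial genes in 9 of 12 (0.24, 2 at that p, 8.07 to 9.64 and 10.1 to 13.9) and adipose genes in 6 of 9 (0.75, 0 at that p, 32.3 to 40.4 and 31.5 to 44.9). Enterocyte genes went the other way, with lower means in 13 of 14 (median -0.38, 5 lower at that p, sums 2425 to 2615 on vehicle and 1852 to 2294 on IIAEK), among them the brush border peptidases Enpep (-1.24) and Dpp4 (-1.12). All 10 pancreas genes had higher means (median 2.57, 0 at that p, sums 28.2 to 53.1 and 32.8 to 2543), with WT IIAEK replicate 3 at the top. Without the 2 arrays highest in pancreas genes, the median of the 31 muscle genes was 0.47 and 12 of them were higher at an unadjusted p under 0.05, against 2.29% of all genes in that fit. The part of these cells in the differences of the muscle genes was not tested.

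Markers of striated muscle were mostly dim. Of 20, Myh1, Myh2, Myh4, Actn3, Neb, Mb and Myog were below background on all 12 arrays, and 10 were tested. Of these 8 had higher means on IIAEK in WT (median 0.19, summed levels 3.49 to 3.65 on vehicle and 3.48 to 6.16 on IIAEK), and Actc1, cardiac alpha actin, which fetal and smooth muscle also make, was 1.13 ± 0.32 higher. On KO vehicle against WT vehicle, the means of 13 of 15 fibroblast genes were higher (median 0.30) and those of 12 of 14 enterocyte genes lower (-0.23). Of all genes, 45.5% had higher means. So did 7 of 9 adipose genes (0.56), 9 of 12 endothelial (0.30) and 7 of 8 pericyte genes (0.30). The counts were 9 of 13 for neurons and glia (0.26) and 7 of 8 for Cajal cells (0.21). They were 4 of 10 for striated muscle (-0.04) and 5 of 10 for pancreas (-0.05). Over the 12 arrays, the array median of the 31 genes had r = 0.958 with that of Cajal cell genes, 0.949 with adhesion and cytoskeleton, 0.893 with regulators, 0.804 with striated muscle, 0.740 with fibroblasts, 0.737 with adipose, 0.700 with pericytes, 0.652 with neurons and glia, 0.503 with endothelium, 0.288 with pancreas and -0.786 with enterocytes, as a description over arrays that share their scaling.

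**Figure D4:**
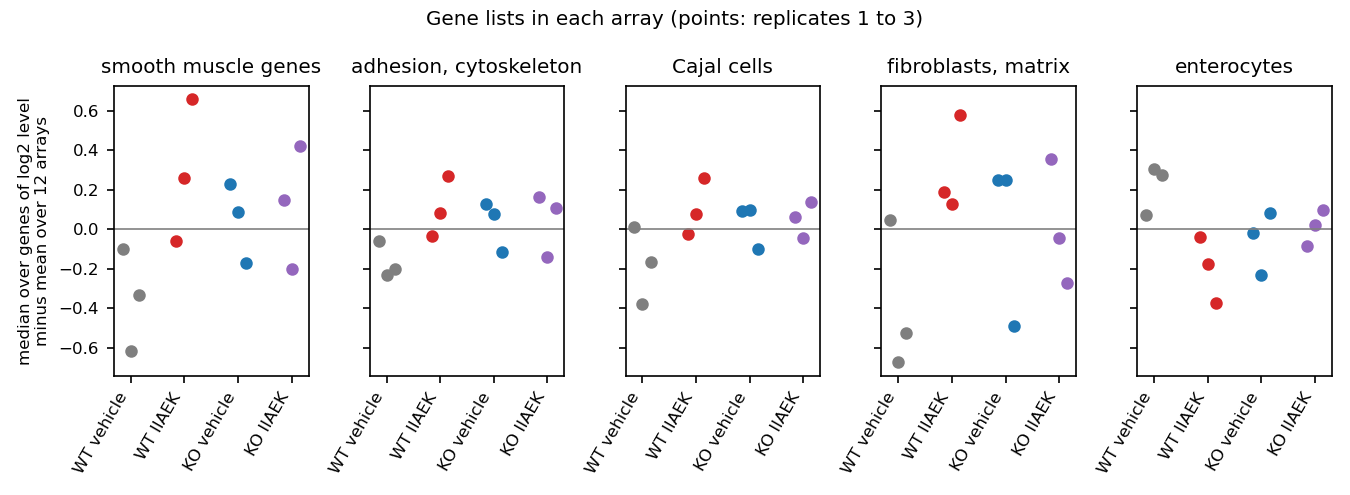
Median over the genes of a list of the log2 level minus the mean of each gene over the 12 arrays (vertical axis), for each array (points, replicates 1 to 3 from left to right) in the 4 groups, for the 31 smooth muscle genes and 4 other lists. WT vehicle replicates 2 and 3 are low in muscle, Cajal cell and fibroblast genes and are the highest arrays in enterocyte genes, and WT IIAEK replicate 3 is the reverse.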

How the data were processed

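Total RNA of 12 jejunum samples, labelled with Cy3 per the labels, was hybridised to Agilent 1-colour arrays. Per the file headers, the deposited processed signal is a background-subtracted intensity. The authors' deposited value table holds log2 values and matched the scaled log2 signal after centring of each probe (r of at least 0.9997), with its scaling and centring not stated; its column medians ran from -0.08 to 0.15. Control spots and outlier spots were left out, and no spot was saturated. The log2 processed signal minus the 75th percentile of the array was used; precision is limited by 3 arrays per group. The brightest probe stood for a gene, and 18 of the 31 genes had several (of 22 other probes, 17 had the same sign for IIAEK in WT). Genes entered the test where some group had all 3 of its arrays well above background. Symbols came from RefSeq accessions, which named 32994 probes. Group means were fitted with limma 3.58.1 (R 4.3.3, residual df 8, prior df 3.37), two-sided, Benjamini-Hochberg adjusted over all 27565 genes at 0.05, and the scripts were tested on simulated data. Errors after ± are SE from limma. An exact permutation test of 3 against 3 cannot go below 0.1. The members and the 11 other lists were chosen with earlier results of these data known. All 31 members are accounted for; from other lists up to 4 genes with the smallest p were named. Alternatives covered normalization, background, filter, value table, probes, slide, replicate block, samples in the fit and left-out arrays. Each slide was also 1 scan.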

Additional observations from a re-analysis of the deposited data

How the results depend on the processing

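No smooth muscle gene passed an adjusted p of 0.05 in limma in any comparison under any alternative run. The smallest adjusted p was that of Lmod1 for KO against WT on IIAEK within slide 2. That fit leaves 1 array in each KO group, and Lmod1 was not well above background on the KO IIAEK array. Its value is therefore not given. Signal over background limits Lmod1 and Pln, which were well above background on 8 and 10 of the 12 arrays. For IIAEK in WT the median of the 31 genes was 0.055 within slide 1 and 0.47 to 0.89 with single arrays left out. It was 0.32 without the lowest and the highest array in these genes. That alternative was chosen after seeing the data, as was that without the arrays highest in pancreas genes. Of 25 alternatives, 23 moved the median by less than the SD between replicates. That number includes fits that cannot change it, such as the slide block, the replicate block and those without a KO array. The median for IIAEK in KO was 0.34 within slide 2, and that of the interaction -0.22 within slide 1. The cause was not tested.

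Counts over all genes, 0 in each comparison as designed, were as follows. For IIAEK in WT they were 1 with slide as a block, 1 within slide 1, 10 within slide 2 and 0 to 1 with single arrays left out. For IIAEK in KO they were 7 within slide 1, 19 within slide 2 and 14 when only those groups were fitted. For KO against WT on vehicle they were 14, 11 and 1 under those settings, and 0 to 2 with single arrays left out. For KO against WT on IIAEK they were 1 with slide as a block, 40 within slide 2, 4 with only those groups and 0 to 2 with single arrays left out, and for the interaction 4 within slide 2. Fits within a slide, or of only 6 arrays, have fewer samples. The fit with no filter shifted the median of all genes for IIAEK in WT to -0.15.

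Single genes turned sign for IIAEK in WT. Within slide 1 these were Synm (-0.053), Tagln (-0.028), Lmod1 (-0.40), Cald1 (-0.13), Synpo2 (-0.25), Pgm5 (0.043), Myocd (-0.043), Itga8 (-0.34), Hspb6 (-0.0021), Csrp1 (-0.033) and Filip1l (0.060). Within slide 2 they were Cav1 (-0.033) and Itga7 (-0.066), with normexp Cav1 (-0.019) and Itga7 (-0.039), with the mean of all probes Pgm5 (0.29) and Cav1 (-0.036), and without the arrays highest in pancreas genes Vcl (-0.053). With single arrays left out, Cav1 ran from -0.10 to 0.21, Vcl from -0.053 to 0.20, Itga7 from -0.047 to 0.13 and Filip1l from -0.18 to 0.034.

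The replicate numbers of the titles were not treated as pairs. Same-numbered deviations correlated at 0.02, -0.14 and -0.25 for IIAEK in WT and at 0.21, 0.09 and 0.35 for IIAEK in KO. In that order, 0 of 6 and 4 of 6 samples correlated best with their own number. For KO against WT it was 2 of 6 on vehicle and 2 of 6 on IIAEK. Same-numbered arrays of a genotype also shared a slide, so these values do not settle whether the numbers pair samples. With the replicate block the median for IIAEK in WT was 0.67, which the block could not change, because each group holds each number once. None of the 31 genes passed the adjusted threshold with the block or without it. In the fit with the block, 17 of the 31 genes were higher at an unadjusted p under 0.05, against 5.87% of all genes.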
